A study of Homo sapiens with 2 samples.

Results

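The collagen genes were read out in a pool of heart muscle cells made from human embryonic stem cells. The members are all genes of the matrix whose symbol is COL, a type number, A and a chain number. This rule used no measured value and found 44 of the 36601 genes, each of which had at least 1 UMI (unique molecular identifier, a count of 1 captured RNA molecule). The cells came from H9, an established human embryonic stem cell line, carried the fluorescent calcium reporter gCaMP6f, and are labelled as cardiomyocytes of day 15 of differentiation. They had been frozen, were thawed in medium with insulin, serum and the ROCK inhibitor Y-27632 (a kinase inhibitor that helps dissociated cells survive), and were stained with hashtag antibodies, which mark the cells of a vial with a barcode, before pooling and droplet capture. A gene expression library and a hashtag library of this 1 pool were deposited, and they share all 24038 cell barcodes. No label says what any of the 13 hashtags marks. The labels therefore give no groups of samples to compare and no replicates of a condition. The comparisons are between kinds of cells within the pool, hashtags are treated as unassigned samples, no test was made, and the 95% intervals (exact Poisson for levels, exact conditional binomial for ratios, exact Clopper-Pearson for shares) cover counting error only.

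Collagens are long helices wound from alpha chains, and each member encodes an alpha chain. Fibrillar collagens (types I, II, III, V and XI among them) build the tensile fibrils of connective tissue, and in the heart they are made mainly by fibroblasts. Type IV collagens form the sheet of basement membranes, which surrounds heart muscle cells and underlies endothelium and epithelium, while type VI collagen forms beaded filaments near that sheet. Fibril-associated collagens decorate fibrils, multiplexins carry sugar chains in the basement membrane zone, and transmembrane collagens sit in the cell surface.

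After filters on depth and mitochondrial UMIs and removal of called doublets, 20634 cells with 284543094 UMIs and a median of 11991 UMIs per cell were kept. They were clustered on genes that excluded the collagens and the other matrix genes reported, so no member formed a class. Marker lists without collagens named 762 stromal-like cells (3.69%), 239 epicardial-like cells (1.16%), 59 endothelial-like cells (0.286%), 697 epithelial-like cells (3.38%), 282 endoderm-like cells (1.37%) and 15937 cardiomyocyte-like cells (77.2%). A cluster of 358 cells (1.74%) stayed unnamed. It was led by STMN2, DKK1 and HGF, no stromal marker was among its 10 leading genes, and it is called the STMN2/DKK1 cluster, although 11 of the 12 stromal markers reached 10 CPM in it (counts per 1000000 UMIs), as they did in stromal-like cells. The summed stromal markers stood at 1230 CPM in the STMN2/DKK1 cluster, 967 CPM in stromal-like cells and 80.8 CPM in cardiomyocyte-like cells. Median depth in the 7 groups lay between 9331 and 13371.5 UMIs per cell. All 12 cardiomyocyte markers passed 10 CPM in every one of these groups, with sums of 1970 to 4026 CPM in the 6 other groups against 40492 CPM in cardiomyocyte-like cells. A further 1559 low-depth cells and 741 cells set aside for a cardiomyocyte marker sum of at least 10000 CPM within another class entered no comparison. The cells set aside made up 191 of 953 cells in the stromal-like cluster and 362 of 720 in the STMN2/DKK1 cluster.

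The members together held 403388 UMIs, 0.142% of all UMIs in the cells. Their summed level was 3067 CPM in stromal-like cells, 5545 CPM in the STMN2/DKK1 cluster, 2885 CPM in epicardial-like cells, 2084 CPM in endothelial-like cells, 1960 CPM in epithelial-like cells, 966 CPM in endoderm-like cells and 1213 CPM in cardiomyocyte-like cells. UMIs are not scaled by transcript length, so shares of UMIs are shares of captured molecules. Fibrillar members made up 67.9% of collagen UMIs in stromal-like cells and 20.2% in cardiomyocyte-like cells. Type IV members made up 68.9% in endothelial-like cells, and the multiplexins made up 26.1% in cardiomyocyte-like cells. Of the 44 members, 26 reached 20 CPM in at least 1 group, 10 peaked between 1 and 20 CPM and 8 stayed under 1 CPM everywhere. Among the 26, the highest level fell in the STMN2/DKK1 cluster for 13, in epicardial-like cells for 4, in endothelial-like cells for 3, in stromal-like and epithelial-like cells for 2 each, and in endoderm-like and cardiomyocyte-like cells for 1 each.

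**Figure D1:**
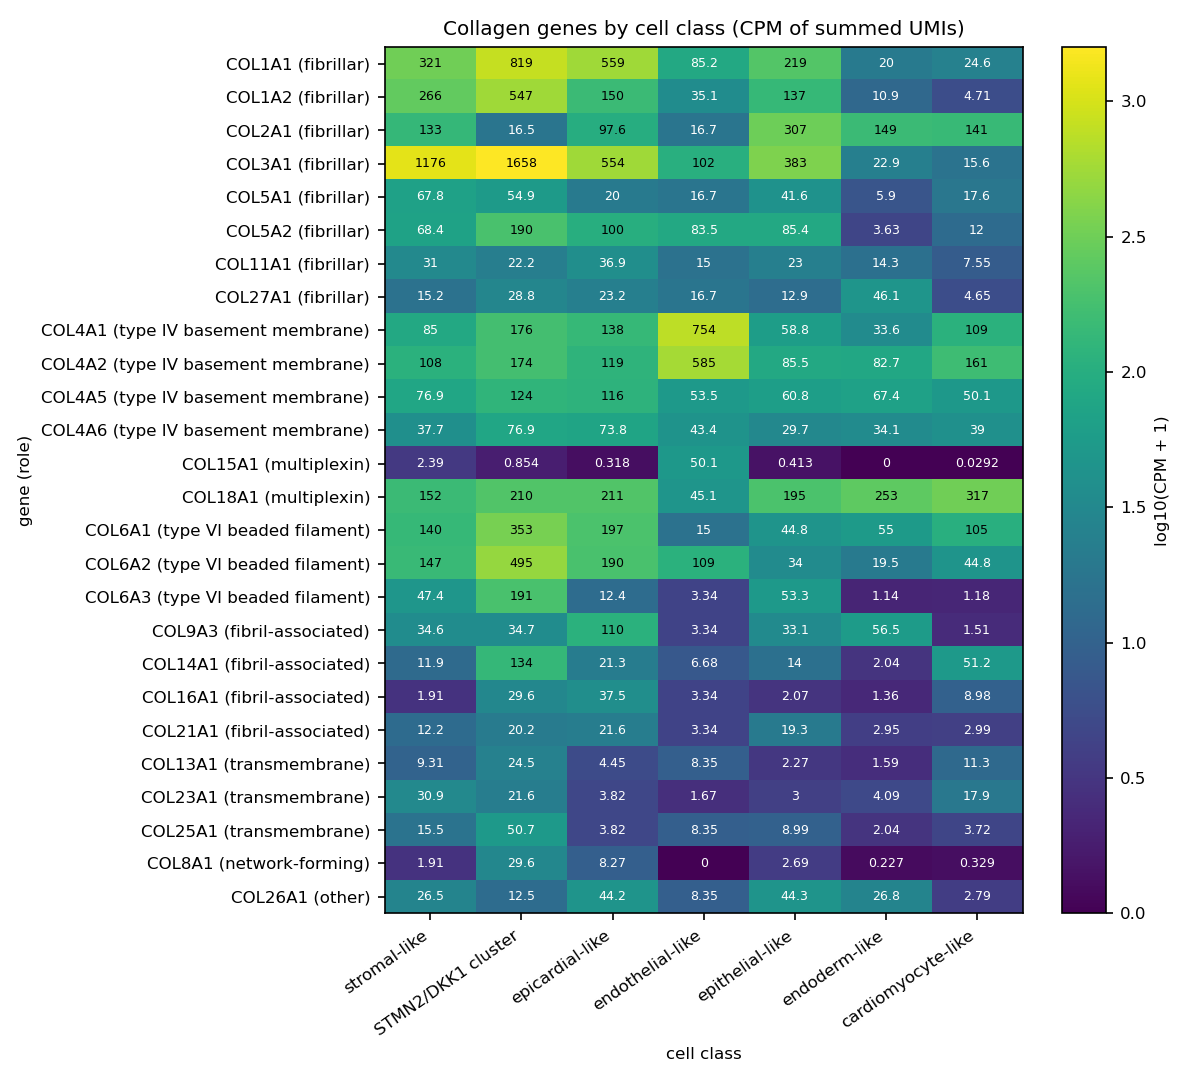
Level of the 26 members that reached 20 CPM (rows, ordered by role) in the 7 groups of cells (columns), with the CPM written in each cell and coloured by log10(CPM + 1). Brighter colours mark higher levels. COL3A1, COL1A1, COL1A2, COL6A2 and COL6A3 are brightest in the STMN2/DKK1 column and COL2A1 in the epithelial-like column. COL4A1, COL4A2 and COL15A1 peak in endothelial-like cells, and COL18A1 is highest in cardiomyocyte-like cells at 317 CPM.

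Among the fibrillar members, COL3A1, the chain of type III collagen, was highest in the STMN2/DKK1 cluster and next in stromal-like cells. It had 1176 CPM in stromal-like cells, 1658 CPM in the STMN2/DKK1 cluster, 554 CPM in epicardial-like cells, 102 CPM in endothelial-like cells, 383 CPM in epithelial-like cells, 22.9 CPM in endoderm-like cells and 15.6 CPM in cardiomyocyte-like cells. COL1A1, which gives 1 of the chains of type I collagen, had 321 CPM in stromal-like cells, 819 CPM in the STMN2/DKK1 cluster, 559 CPM in epicardial-like cells, 85.2 CPM in endothelial-like cells, 219 CPM in epithelial-like cells, 20.0 CPM in endoderm-like cells and 24.6 CPM in cardiomyocyte-like cells. Its partner COL1A2 had 266 CPM in stromal-like cells, 547 CPM in the STMN2/DKK1 cluster, 150 CPM in epicardial-like cells, 35.1 CPM in endothelial-like cells, 137 CPM in epithelial-like cells, 10.9 CPM in endoderm-like cells and 4.71 CPM in cardiomyocyte-like cells. These 3 chains of interstitial fibrils were thus low in endoderm-like and cardiomyocyte-like cells and stood at 137 to 1658 CPM in the stromal-like, STMN2/DKK1, epicardial-like and epithelial-like groups. COL5A1 and COL5A2 encode chains of type V collagen, which regulates how thick type I fibrils grow. COL5A2 followed that pattern, with 68.4 CPM in stromal-like cells, 190 CPM in the STMN2/DKK1 cluster, 100 CPM in epicardial-like cells, 83.5 CPM in endothelial-like cells, 85.4 CPM in epithelial-like cells, 3.63 CPM in endoderm-like cells and 12.0 CPM in cardiomyocyte-like cells. COL5A1 spread less widely, with 67.8 CPM in stromal-like cells, 54.9 CPM in the STMN2/DKK1 cluster, 16.7 to 41.6 CPM in epicardial-like, endothelial-like and epithelial-like cells, 5.90 CPM in endoderm-like cells and 17.6 CPM in cardiomyocyte-like cells.

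COL2A1, the chain of type II collagen and the main fibril of cartilage, had another order of levels. It had 133 CPM in stromal-like cells, 16.5 CPM in the STMN2/DKK1 cluster, 97.6 CPM in epicardial-like cells, 16.7 CPM in endothelial-like cells, 307 CPM in epithelial-like cells, 149 CPM in endoderm-like cells and 141 CPM in cardiomyocyte-like cells. The levels in endoderm-like, cardiomyocyte-like and stromal-like cells were within 1.5-fold of each other. Cartilage markers outside the collagens, summed over 9 genes, stood at 215 CPM in stromal-like cells, 167 CPM in epithelial-like cells and 26.4 CPM in cardiomyocyte-like cells, so the order of COL2A1 was not the order of that list. COL11A1, a type XI chain that takes part in fibril formation in cartilage, lay between 14.3 and 36.9 CPM in the 6 other groups, against 7.55 CPM in cardiomyocyte-like cells. COL27A1, a type XXVII chain also known from cartilage, was highest in endoderm-like cells at 46.1 CPM, against 4.65 CPM in cardiomyocyte-like cells, and had 12.9 to 28.8 CPM in the other groups.

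The type IV chains COL4A1 and COL4A2, which assemble with each other in nearly all basement membranes, were highest in endothelial-like cells. COL4A1 had 85.0 CPM in stromal-like cells, 176 CPM in the STMN2/DKK1 cluster, 138 CPM in epicardial-like cells, 754 CPM in endothelial-like cells, 58.8 CPM in epithelial-like cells, 33.6 CPM in endoderm-like cells and 109 CPM in cardiomyocyte-like cells. COL4A2 had 108 CPM in stromal-like cells, 174 CPM in the STMN2/DKK1 cluster, 119 CPM in epicardial-like cells, 585 CPM in endothelial-like cells, 85.5 CPM in epithelial-like cells, 82.7 CPM in endoderm-like cells and 161 CPM in cardiomyocyte-like cells. Stromal-like and cardiomyocyte-like levels of both chains were thus within 1.5-fold of each other. COL4A5 and COL4A6, which assemble together in the basement membranes of smooth muscle and some epithelia, varied least among the abundant members. COL4A5 had 76.9 CPM in stromal-like cells and was highest in the STMN2/DKK1 cluster at 124 CPM and lowest in cardiomyocyte-like cells at 50.1 CPM. COL4A6 had 37.7 CPM in stromal-like cells, was highest in the STMN2/DKK1 cluster at 76.9 CPM and lowest in epithelial-like cells at 29.7 CPM, and had 39.0 CPM in cardiomyocyte-like cells. COL4A3 and COL4A4, the chains of the kidney filter and lung, stayed at or below 0.62 CPM.

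COL4A1 and COL4A2 lie head to head on chromosome 13, and the stretch between their starts is shown because their levels had the highest correlation among the 6 pairs of partner chains examined. In the RefSeq annotation of GRCh38.p14, COL4A1 starts at base 110307157 on the minus strand and COL4A2 at base 110307284 on the plus strand. The 126 bases between them, at chr13:110307158-110307283, are written 5′ to 3′ on the plus strand, and the capitals mark a CCAAT box and, further along, a GC box (GGGCGG).
COL4A1 and COL4A2 interval: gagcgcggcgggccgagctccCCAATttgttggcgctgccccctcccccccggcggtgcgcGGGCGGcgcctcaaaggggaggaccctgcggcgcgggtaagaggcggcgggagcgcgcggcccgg
Both strands were searched for these motifs and for the TATA box, spelled TATAAA, none of which overlap. The CCAAT box was found 1 time and is in 21.1% of the same-length windows upstream of 35116 RefSeq starts, and the GC box was found 1 time and is in 34.6% of them. The TATA box was not in this window and is in 5.87% of them. GC content was 80.2%, against a median of 60.3%. COL4A5 and COL4A6 form the same arrangement on chromosome X, with 379 bases between their starts. The 250 bases upstream of COL4A5, at chrX:108439588-108439837 on the plus strand, hold the CCAAT box on both strands (in capitals, the reverse match reading ATTGG), a motif that 32% of such windows hold on at least 1 strand, and neither of the other 2 motifs, which 42.6% and 10.7% of such windows hold.
COL4A5 upstream: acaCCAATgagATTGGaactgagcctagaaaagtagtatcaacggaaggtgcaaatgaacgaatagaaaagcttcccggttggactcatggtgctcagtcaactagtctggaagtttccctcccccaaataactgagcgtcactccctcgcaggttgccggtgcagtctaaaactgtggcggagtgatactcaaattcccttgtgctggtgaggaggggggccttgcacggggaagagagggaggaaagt
A match is a run of letters and not a shown binding site. Of the 44 members, 32 had a promoter entry. In the GENCODE 29 annotation on GRCh38, COL4A1 (chr13:110148963-110307233) and COL4A2 (chr13:110305812-110513209) overlap at their 5′ ends, and how the counting used strand is not given in the sources used here, so UMIs from that stretch could be assigned to either gene.

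The type VI chains did not share 1 pattern. COL6A1 had 140 CPM in stromal-like cells, 353 CPM in the STMN2/DKK1 cluster, 197 CPM in epicardial-like cells, 15.0 CPM in endothelial-like cells, 44.8 CPM in epithelial-like cells, 55.0 CPM in endoderm-like cells and 105 CPM in cardiomyocyte-like cells. COL6A2 had 147 CPM in stromal-like cells, 495 CPM in the STMN2/DKK1 cluster, 190 CPM in epicardial-like cells, 109 CPM in endothelial-like cells, 34.0 CPM in epithelial-like cells, 19.5 CPM in endoderm-like cells and 44.8 CPM in cardiomyocyte-like cells. COL6A3, the longest chain of type VI collagen, had 47.4 CPM in stromal-like cells, 191 CPM in the STMN2/DKK1 cluster, 12.4 CPM in epicardial-like cells, 3.34 CPM in endothelial-like cells, 53.3 CPM in epithelial-like cells, 1.14 CPM in endoderm-like cells and 1.18 CPM in cardiomyocyte-like cells. COL6A1 and COL6A2 were thus present in cardiomyocyte-like cells, whereas COL6A3 was near 1 CPM there. COL6A5 peaked at 0.119 CPM and COL6A6 at 7.63 CPM.

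Of the multiplexins, COL18A1, whose C-terminal fragment is endostatin, was the only 1 of the 26 members with its highest level in cardiomyocyte-like cells. It had 152 CPM in stromal-like cells, 210 CPM in the STMN2/DKK1 cluster, 211 CPM in epicardial-like cells, 45.1 CPM in endothelial-like cells, 195 CPM in epithelial-like cells, 253 CPM in endoderm-like cells and 317 CPM in cardiomyocyte-like cells (interval 315 to 319 CPM). The endoderm-like and cardiomyocyte-like levels were within 1.5-fold of each other. COL15A1, the other multiplexin, known from capillary and muscle basement membranes, had 50.1 CPM in endothelial-like cells and at most 2.39 CPM elsewhere.

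Among the fibril-associated members, COL9A3, a chain of type IX collagen on cartilage fibrils, had 34.6 CPM in stromal-like cells, 34.7 CPM in the STMN2/DKK1 cluster, 110 CPM in epicardial-like cells, 3.34 CPM in endothelial-like cells, 33.1 CPM in epithelial-like cells, 56.5 CPM in endoderm-like cells and 1.51 CPM in cardiomyocyte-like cells. COL14A1, which binds the surface of type I fibrils, had 11.9 CPM in stromal-like cells, 134 CPM in the STMN2/DKK1 cluster, 21.3 CPM in epicardial-like cells, 6.68 CPM in endothelial-like cells, 14.0 CPM in epithelial-like cells, 2.04 CPM in endoderm-like cells and 51.2 CPM in cardiomyocyte-like cells. It was thus highest in the STMN2/DKK1 cluster and next in cardiomyocyte-like cells. COL16A1 reached 29.6 CPM in the STMN2/DKK1 cluster and 37.5 CPM in epicardial-like cells, had 8.98 CPM in cardiomyocyte-like cells and stayed between 1.36 and 3.34 CPM in the other groups. COL21A1 had between 12.2 and 21.6 CPM in stromal-like, STMN2/DKK1, epicardial-like and epithelial-like cells and about 3 CPM in the other 3 groups. Of the transmembrane members, COL23A1 reached 30.9 CPM in stromal-like cells and had 1.67 CPM in endothelial-like cells, with 17.9 CPM in cardiomyocyte-like cells. COL26A1 had 44.2 CPM in epicardial-like cells, 44.3 CPM in epithelial-like cells, 26.5 CPM in stromal-like cells, 26.8 CPM in endoderm-like cells and 2.79 CPM in cardiomyocyte-like cells.

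Of the 26 members, 3 reached 20 CPM only in the unnamed STMN2/DKK1 cluster, and they are named after their values were seen. The network-forming COL8A1, found in vessel walls, had 29.6 CPM there and at most 8.27 CPM elsewhere. The transmembrane COL13A1 had 24.5 CPM there and 11.3 CPM in cardiomyocyte-like cells, and the transmembrane COL25A1 had 50.7 CPM there and 3.72 CPM in cardiomyocyte-like cells. The 10 members that peaked between 1 and 20 CPM were COL12A1, COL9A2, COL22A1, COL11A2, COL9A1, COL7A1, COL6A6, COL19A1, COL8A2 and COL24A1, with peaks of 2.07 to 19.5 CPM. The 8 members under 1 CPM were COL17A1, COL28A1, COL4A3, COL4A4, COL5A3, COL20A1, COL6A5 and COL10A1, and differences among cells were not detectable for them at this depth.

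Stromal-like cells were compared with cardiomyocyte-like cells first. The largest ratios were those of COL3A1, COL1A2, COL6A3 and the type IX chain COL9A2. COL3A1 was 75.5-fold higher in stromal-like cells (interval 72.7 to 78.5), COL1A2 56.5-fold (52.5 to 60.7), COL6A3 40.0-fold (34.3 to 46.8) and COL9A2 38.9-fold (29.6 to 51.2). COL1A1, the partner of COL1A2, was 13.1-fold higher (12.5 to 13.7). COL18A1 was lower in stromal-like cells, at a ratio of 0.479 (0.453 to 0.506), and COL14A1 was lower at 0.233 (0.190 to 0.284). Members with at least 10 CPM and 10 UMIs in the group with more of them counted as measured, and a 1.5-fold difference made them higher or lower. Of 27 members measured, 16 were higher and 4 were lower in stromal-like cells, where 27.7% of all genes measured were higher and 14.8% were lower. The median log2 ratio was 1.71 over these members and 0.21 over all genes measured. By role, 7 of 9 fibrillar members were higher and 1 was lower, 2 of 3 type VI members were higher, 3 of 6 fibril-associated members were higher and 2 lower, and 2 of 3 transmembrane members were higher. Of the 4 type IV members only COL4A5 passed 1.5-fold, at 1.53 (1.41 to 1.66), and COL4A1, COL4A2 and COL4A6 had ratios of 0.776, 0.671 and 0.968. The COL4A5 call was lost under several alternatives, such as clustering at resolution 1.0 (1.39). COL2A1 did not differ beyond its counting error, with a ratio of 0.943 (0.888 to 1.00).

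The other higher members in stromal-like cells included 2 chains of type IX collagen. COL9A3 was 23.0-fold higher (19.6 to 26.9), and COL9A2, named after its values were seen, had 15.4 CPM in stromal-like cells, compared with 0.396 CPM in cardiomyocyte-like cells. COL26A1 was 9.51-fold higher, COL5A2 5.71-fold, COL11A1 4.11-fold, COL21A1 4.08-fold, COL5A1 3.84-fold, COL6A2 3.28-fold and COL27A1 3.26-fold. The lower members were COL18A1, COL14A1, and 2 further members of which more was found in cardiomyocyte-like cells. COL22A1, a fibril-associated member known at muscle-tendon junctions, had 5.25 CPM in stromal-like cells, compared with 18.4 CPM in cardiomyocyte-like cells. COL11A2, a type XI chain, had 3.10 CPM in stromal-like cells, compared with 17.3 CPM in cardiomyocyte-like cells, a ratio of 0.180 (0.117 to 0.264), and both were named after their values were seen. Scaling with TMM factors instead of total UMIs shifted every log2 ratio of this comparison by -0.38, which gave 14 higher and 9 lower members, COL4A1 and COL4A2 then being among the lower ones. With the STMN2/DKK1 cluster added to the stromal-like cells, 18 members were higher and 3 lower, and COL14A1 was no longer lower, at a ratio of 0.935. The COL6A3 ratio was then 75.8, and other clusterings moved it up or down beyond its counting interval, as given further below. The share of all genes was not counted under TMM scaling or with the STMN2/DKK1 cluster added. These counts are therefore not read as results about collagens.

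**Figure D2:**
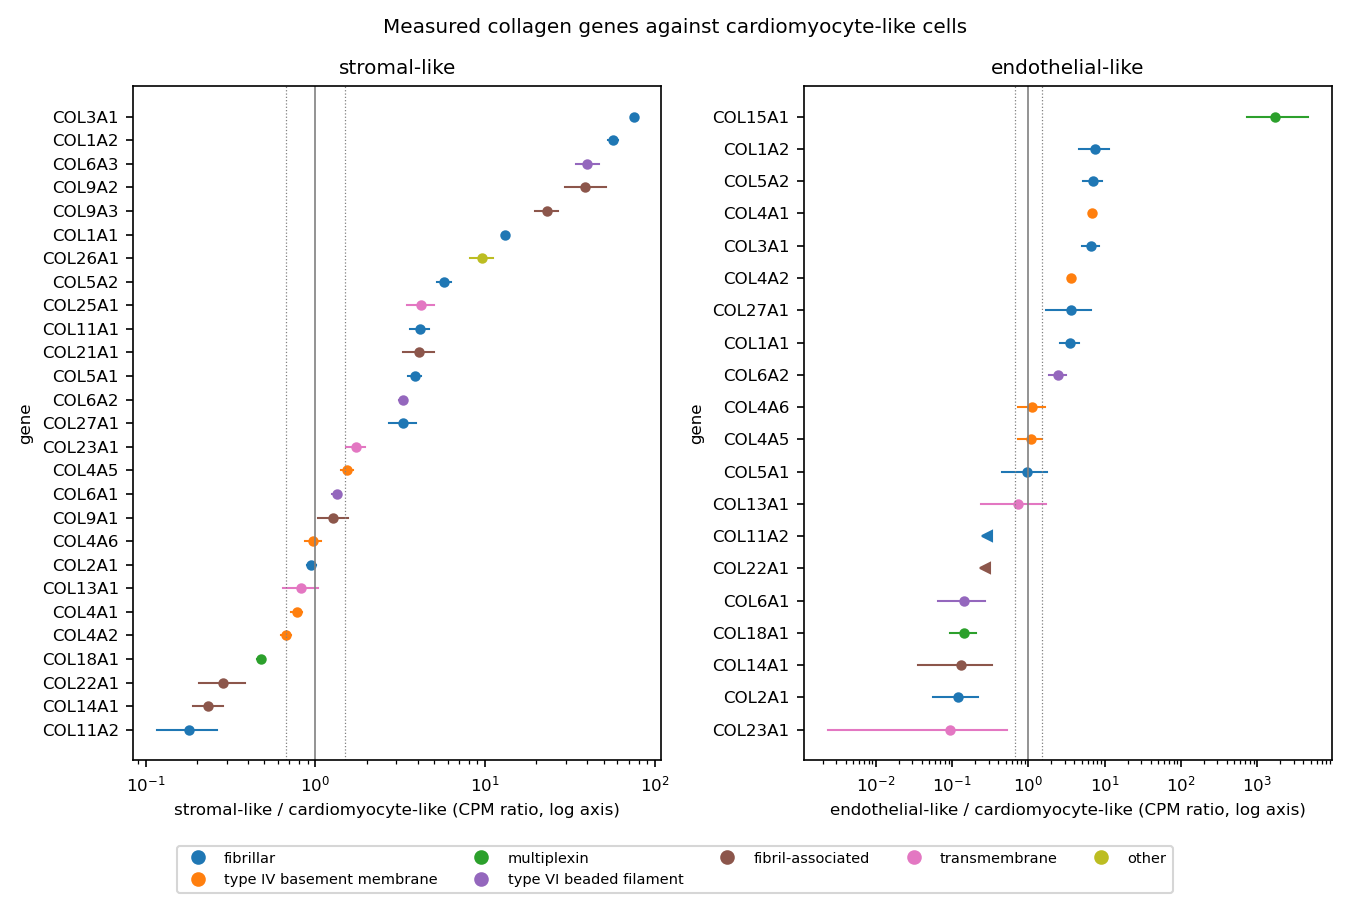
Ratio of each measured member in stromal-like and in endothelial-like cells to cardiomyocyte-like cells on a log axis, with 95% counting intervals, colours by role and dotted lines at a ratio of 1.5 in each direction. Triangles mark bounds set against 0 counts. COL3A1, COL1A2 and COL6A3 lie far to the right for stromal-like cells, whereas COL15A1, COL4A1 and COL4A2 lie to the right for endothelial-like cells and COL18A1 lies to the left for both.

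The low levels in cardiomyocyte-like cells can include free RNA (RNA of lysed cells that enters other droplets), so they were set beside the stromal markers. The cardiomyocyte-like level of COL3A1 was 1.32% of the stromal-like level, that of COL1A2 was 1.77%, that of COL6A3 was 2.5% and that of COL1A1 was 7.66%. The same percentage ran from 0.970% (DCN) to 47.4% (PDGFRA) over the 12 stromal markers, with a median of 2.74%. COL3A1, COL1A2 and COL6A3 were thus below the median marker and COL1A1 above it. UMIs of COL3A1 and COL1A2 were concentrated in few cardiomyocyte-like cells. The 1% of cells that had most of each chain held 47.7% of the 3732 COL3A1 UMIs and 48.6% of the COL1A2 UMIs, against 15.3% for COL1A1 and 5.01% for COL18A1. How much of these low levels is free RNA was not tested.

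The share of cells with a UMI, after each cell was thinned to 3000 UMIs, gave the same order for COL3A1 as its CPM. It was seen in 79.9% of stromal-like cells (interval 76.8 to 82.8), 94.9% of STMN2/DKK1 cells, 72.2% of epicardial-like cells, 36.5% of epithelial-like cells, 10.2% of endothelial-like cells, 3.73% of endoderm-like cells and 3.41% of cardiomyocyte-like cells (3.13 to 3.7). Without thinning the shares were 86.6% in stromal-like cells and 10.7% in cardiomyocyte-like cells, at median depths of 10487 and 12926 UMIs. The endoderm-like and cardiomyocyte-like shares of the thinned cells were alike, and no expression is read from them. COL18A1 was seen in 34.6% of stromal-like cells, 54.1% of endoderm-like cells, 8.47% of endothelial-like cells and 61.9% of cardiomyocyte-like cells, and COL2A1 in 24.4% of stromal-like cells, 6.93% of STMN2/DKK1 cells, 50.1% of epithelial-like cells and 38.1% of endoderm-like cells. At a fixed depth these shares thus differed between groups by several fold. COL6A3 was seen in 28.0% of STMN2/DKK1 cells, 6.60% of stromal-like cells and 0.284% of cardiomyocyte-like cells.

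The STMN2/DKK1 cluster had the highest collagen level of all groups. It differed from cardiomyocyte-like cells most in COL6A3, with a ratio of 161 (140 to 186), COL1A2 with 116 (108 to 125), COL3A1 with 107 (102 to 111) and COL8A1 with 89.9 (66.4 to 122). Of 27 members measured, 21 were higher and 4 lower, against 29.4% and 17.4% of all genes measured, and the median log2 ratio was 1.72 for members and 0.18 for all genes. All 3 type VI members, 3 of 4 type IV members and 7 of 9 fibrillar members were higher. COL2A1 was lower, at a ratio of 0.117 (0.0888 to 0.151), as were COL11A2, COL22A1 and COL18A1. COL14A1 was 2.61-fold higher here (2.37 to 2.86), while stromal-like cells had less of it than cardiomyocyte-like cells. Without setting cells aside for cardiomyocyte markers, which had removed 362 of the 720 cells, COL3A1 was 67.3-fold and COL6A3 104-fold higher, and the COL18A1 ratio of 0.786 was within 1.5-fold.

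Set against stromal-like cells, the STMN2/DKK1 cluster had 18 of 28 measured members higher and 4 lower, where 11.6% of all genes were higher and 10.9% lower. COL16A1 and COL8A1 were each 15.5-fold higher, COL14A1 11.2-fold (9.0 to 14.0), COL6A3 4.03-fold (3.56 to 4.58) and COL1A1 2.55-fold (2.42 to 2.69). All 4 type IV and all 3 type VI members were higher. COL3A1 had a ratio of 1.41 and was not counted. COL2A1 was lower at 0.124 (0.0936 to 0.162), and the type IX chains COL9A1 and COL9A2 were lower at 0.436 and 0.462. COL27A1, also known from cartilage, was 1.90-fold higher in the STMN2/DKK1 cluster, and COL9A3 had a ratio of 1.00. Beside these differences, pericyte and smooth muscle markers summed to 2677 CPM in the STMN2/DKK1 cluster and 1248 CPM in stromal-like cells, with 6 and 7 of the 10 markers at 10 CPM or more. Their part in the collagen levels was not tested.

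Epicardial-like cells had 15 of 25 measured members higher and 5 lower than cardiomyocyte-like cells, where 22.4% of all genes were higher and 21.3% lower. COL9A3 differed most, at 73.3-fold (63.1 to 85.2), followed by COL3A1 at 35.6-fold (33.6 to 37.7), COL1A2 at 31.9-fold (28.6 to 35.5) and COL1A1 at 22.8-fold (21.6 to 24.0). All 3 type VI members were higher, although COL6A3 had only 12.4 CPM. The transmembrane COL13A1 and COL23A1 were lower, at ratios of 0.393 and 0.214. The median log2 ratio was 1.21 for members and 0.02 for all genes. TMM scaling, which shifted the log2 ratios by -0.18, gave 15 higher and 9 lower members, and the share of all genes under this scaling was not counted. Beside these values, 9 of 10 epicardial markers reached 10 CPM in these cells, and the epithelial list, which holds keratins, summed to 9146 CPM, above the 6862 CPM of epithelial-like cells.

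Against stromal-like cells, epicardial-like cells had 10 of 25 measured members higher and 8 lower, where 11.2% and 20.8% of all genes were. COL16A1 was 19.7-fold higher (11.6 to 35.5) and COL9A3 3.19-fold. COL3A1 was lower in epicardial-like cells, at a ratio of 0.471 (0.447 to 0.496), while COL1A1 was 1.74-fold higher. COL6A3 was lower at 0.262 and COL9A2 at 0.0620. The 2 chains of type IX collagen that were abundant in stromal-like cells thus moved in opposite directions in epicardial-like cells.

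Endothelial-like cells were few (59 cells, 598483 UMIs), and their collagen was mostly type IV. COL4A1 was 6.89-fold (6.26 to 7.56) and COL4A2 3.62-fold higher (3.25 to 4.03) than in cardiomyocyte-like cells. COL15A1 had 30 UMIs in endothelial-like cells against 7 UMIs in cardiomyocyte-like cells, which gave a ratio of 1717 with an interval of 739 to 4632. COL18A1 was lower, at 0.142 (0.0937 to 0.207), so the 2 multiplexins had opposite directions, and COL6A1 was lower at 0.143 (0.0656 to 0.272). Of 20 members measured, 9 were higher and 7 lower, where 25.5% of all genes were higher and 30.5% lower. The median log2 ratio was 0.13 for members and -0.07 for all genes. COL22A1 and COL11A2 had 0 UMIs in endothelial-like cells, which a floor of 3 counts limits to ratios of at most 0.272 and 0.290.

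COL4A1 was spread over the endothelial-like cells, while COL1A1 and COL3A1 were not. COL4A1 was found in 55 of the 59 cells and the 6 cells with most of it held 33.5% of its 451 UMIs. All 51 COL1A1 UMIs lay in 6 cells, and the top 6 cells held 93.4% of the 61 COL3A1 UMIs. The fibrillar COL5A2 was spread more evenly, over 31 cells, with 38% of its UMIs in the top 6. COL1A1 was 3.47-fold higher over all endothelial-like cells but had a ratio of 0.371 among those given to 1 hashtag, where COL3A1 was 1.70-fold higher in place of 6.55-fold. Stromal markers summed to 563 CPM in endothelial-like cells, with 3 of 12 at 10 CPM or more and 2 at 0, and whether they lie in the same cells was not tested. After thinning, COL4A1 was seen in 78.0% of endothelial-like cells, 18.8% of stromal-like cells and 26.4% of cardiomyocyte-like cells. COL15A1 was seen in 11.9% of endothelial-like cells (4.91 to 22.9) and in 0 of 15500 thinned cardiomyocyte-like cells. Against stromal-like cells, endothelial-like cells had 3 of 25 measured members higher and 17 lower, where 16.6% and 32.3% of all genes were. The 3 were COL15A1 at 21.0-fold, COL4A1 at 8.87-fold and COL4A2 at 5.40-fold.

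Ratios between partner chains show how far members of 1 trimer kept together. Since UMIs are not scaled by length, only the change of a ratio from group to group was read, not its size. The COL4A1 to COL4A2 ratio was 0.784 in stromal-like cells, 1.01 in the STMN2/DKK1 cluster, 1.16 in epicardial-like cells, 1.29 in endothelial-like cells, 0.687 in epithelial-like cells, 0.407 in endoderm-like cells and 0.678 in cardiomyocyte-like cells. The COL4A5 to COL4A6 ratio stayed between 1.23 and 2.05 in these groups. Within classes it spread further, with 0.823 in cardiomyocyte-like cluster 1 and 3.67 in stromal-like cluster 5. The COL1A1 to COL1A2 ratio varied more, with 1.21 in stromal-like cells, 1.5 in the STMN2/DKK1 cluster, 3.72 in epicardial-like cells, 2.43 in endothelial-like cells, 1.59 in epithelial-like cells, 1.83 in endoderm-like cells and 5.22 in cardiomyocyte-like cells. Within the stromal-like class it was 4.09 in cluster 5 and 0.152 (0.0922 to 0.239) in cluster 6, and it was 0.371 and 0.303 in epithelial-like clusters 3 and 5. The COL6A3 to COL6A1 ratio had the widest range of the pairs examined, with 0.339 in stromal-like cells, 0.541 in the STMN2/DKK1 cluster, 0.0629 in epicardial-like cells, 1.19 in epithelial-like cells and 0.0113 in cardiomyocyte-like cells. The COL6A1 to COL6A2 ratio ran from 0.138 in endothelial-like cells, on 9 COL6A1 UMIs, to 2.81 in endoderm-like cells. The COL5A1 to COL5A2 ratio ran from 0.2 in epicardial-like and endothelial-like cells to 1.625 in endoderm-like cells. Over 27 clusters and groups of this 1 pool, which share the library, the Pearson correlation of log2(CPM + 1) was 0.927 for COL4A1 with COL4A2, 0.844 for COL1A1 with COL1A2, 0.821 for COL4A5 with COL4A6, 0.695 for COL5A1 with COL5A2, 0.675 for COL6A1 with COL6A2 and 0.217 for COL6A3 with COL6A1, given as descriptions. By Spearman rank correlation COL4A5 with COL4A6 had 0.629, below the 0.705 of COL6A1 with COL6A2.

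**Figure D3:**
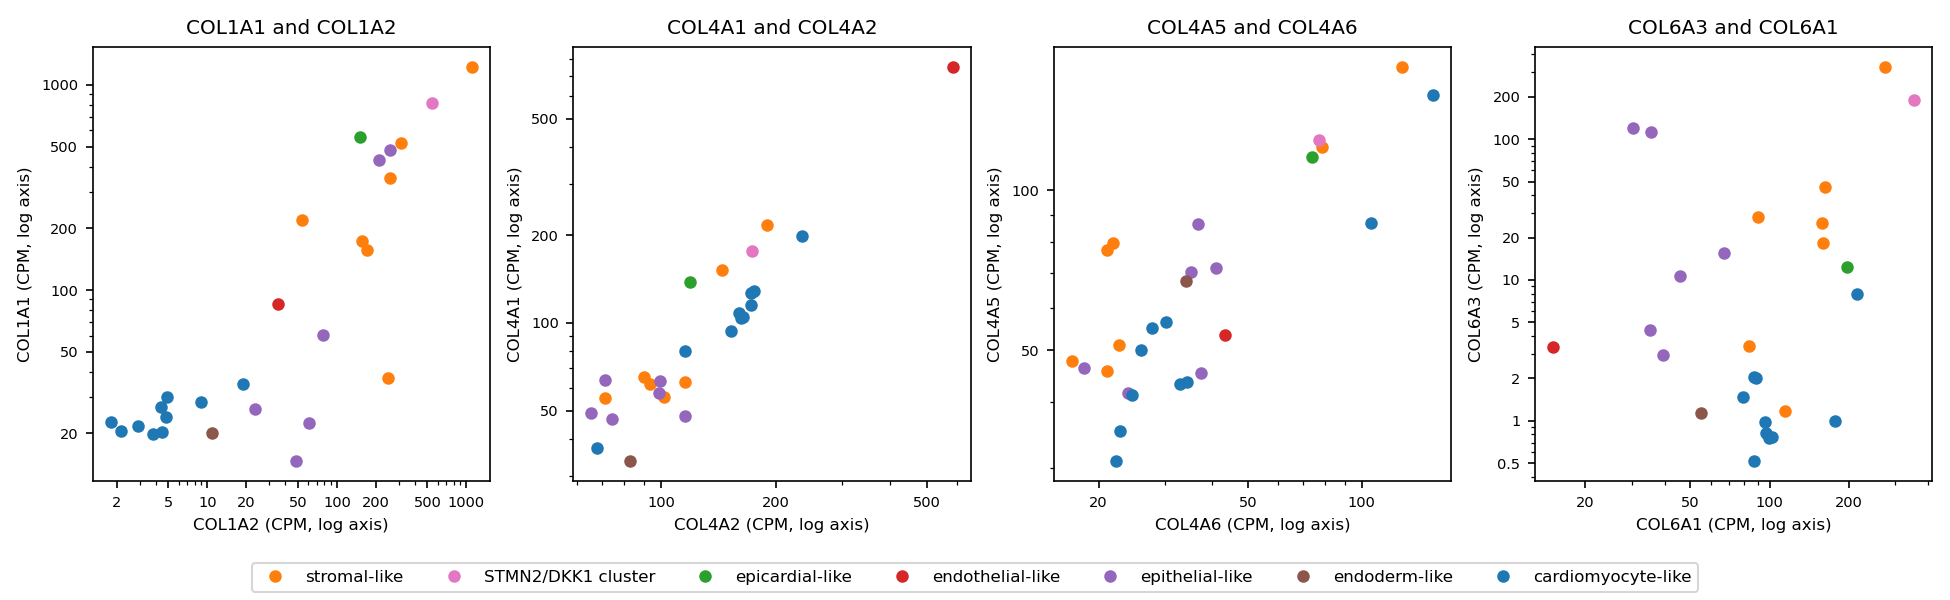
Levels of partner chains in 27 clusters and groups (1 point each), for COL1A1 with COL1A2, COL4A1 with COL4A2, COL4A5 with COL4A6 and COL6A3 with COL6A1, on log axes in CPM. The COL4A1 and COL4A2 points lie close to a line (Pearson r of 0.927 on log2(CPM + 1)), whereas the COL6A3 and COL6A1 points scatter (0.217).

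Epithelial-like cells had 13 of 25 measured members higher and 9 lower than cardiomyocyte-like cells, where 27.8% of all genes were higher and 19.6% lower. COL6A3 was 45.0-fold higher (38.9 to 52.2), COL1A2 29.2-fold, COL3A1 24.6-fold (23.5 to 25.7) and COL2A1 2.18-fold (2.10 to 2.26). COL12A1, which binds the surface of type I fibrils and was named after its values were seen, had 19.5 CPM in epithelial-like cells, compared with 0.609 CPM in cardiomyocyte-like cells, a ratio of 32.1 (25.7 to 40.1). COL4A1 and COL4A2 were lower, at 0.537 and 0.530. Of the 9 fibrillar members 8 were higher, the exception being COL11A2, which was lower. The median log2 ratio was 1.12 for members and 0.16 for all genes. TMM scaling shifted the log2 ratios by -0.35 and, since it also scales the levels, let more members pass the 10 CPM minimum. It gave 13 higher and 14 lower members, and the share of all genes under this scaling was not counted. Against stromal-like cells, 4 of 25 measured members were higher (9.27% of all genes were) and 9 lower (11.6%). The 4 were COL12A1 at 13.6-fold, COL2A1 at 2.31-fold, COL26A1 at 1.67-fold and COL21A1 at 1.59-fold.

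The high fibrillar levels of the epithelial-like class lay in 2 of its 6 clusters. This split was made after the values were seen and sets clusters 1 and 6 (262 cells) against clusters 2 to 5 (435 cells). COL3A1 had 843 CPM in clusters 1 and 6 against 56.7 CPM in the others, a ratio of 14.9 (13.3 to 16.7), and COL1A1 had 471 CPM in clusters 1 and 6 against 39.9 CPM in the others. COL12A1 had 43.6 CPM in clusters 1 and 6 against 2.47 CPM in the others, COL6A3 was 10.9-fold and COL5A2 7.85-fold higher there. COL2A1 went the other way, with 104 CPM in clusters 1 and 6 against 451 CPM in the others, a ratio of 0.230 (0.207 to 0.255). In all, 10 of 24 measured members were higher in clusters 1 and 6 and 7 were lower, where 9.15% and 21.1% of all genes were. Of the 12 stromal markers 6 were measured, and 5 of them (DCN, LUM, FBLN1, THY1 and PRRX1) were higher in clusters 1 and 6 while POSTN was lower. DCN had 319 CPM in clusters 1 and 6 against 5.29 CPM in the others, and POSTN had 7.97 CPM in clusters 1 and 6 against 14.6 CPM in the others. Of the 13 epithelial markers, all measured, 5 were higher (KRT7, KRT8, KRT18, KRT19 and GATA3), 2 were lower (CLDN4 and ESRP1) and the rest, EPCAM and CDH1 among them, were within 1.5-fold. The part of either list in the result was not tested.

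Endoderm-like cells had the lowest collagen level, with 6 of 24 measured members higher and 11 lower than in cardiomyocyte-like cells, where 27.1% of all genes were higher and 21.4% lower. The share of members that were higher, 6 of 24, was near that of all genes. COL9A2 was 47.0-fold higher (34.6 to 63.8), COL9A3 37.6-fold (31.8 to 44.3), COL27A1 9.92-fold (8.50 to 11.5) and COL11A1 1.90-fold, while COL2A1 had a ratio of 1.06 and was not counted. The type XI chain COL11A2 was lower, at 0.0657 (0.0213 to 0.154). COL1A2 was 2.32-fold higher over all cells but had a ratio of 0.565 as the median over hashtags. COL4A1, COL4A2, COL5A2 and COL14A1 were lower, at 0.307, 0.512, 0.304 and 0.0399. The median log2 ratio was -0.31 for members and 0.11 for all genes.

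Within the stromal-like class, cluster 7 stood out for its collagen. It held 58 cells, was led by TM4SF1, SST and DLK1, and had a summed collagen level of 8761 CPM, against 3067 CPM for the class. Of 26 members measured, 17 were higher in cluster 7 than in the other stromal-like cells and 5 lower, where 12.8% and 22.4% of all genes were. COL6A3 had 327 CPM in cluster 7 against 23.9 CPM in the others, a ratio of 13.7 (11.2 to 16.7). COL14A1 was 8.28-fold higher, COL1A2 5.64-fold (5.16 to 6.17), COL25A1 5.49-fold and COL1A1 5.01-fold (4.61 to 5.44). COL15A1 had 30.8 CPM in cluster 7 and 0 UMIs in the others, so it was at least 79.4-fold higher against a floor of 3 counts over the other cells. COL2A1 was lower, with 12.3 CPM in cluster 7 against 143 CPM in the others, and the 3 type IX chains and COL11A1 were also lower. All 4 type IV members were higher in cluster 7. Cluster 7 also had the highest stromal markers of the class, summing to 2724 CPM. Endothelial markers summed to 713 CPM in cluster 7 against 243 CPM in the class, and cartilage markers to 487 CPM against 215 CPM. Epithelial markers were lower, at 1145 CPM against 2212 CPM. The part of these lists in the collagen levels was not tested. The cells of cluster 7 were unevenly spread over hashtags, with 15 of the 30 stromal-like cells of Hashtag12 and 1 of the 126 of Hashtag2.

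The other 6 stromal-like clusters differed in fewer members. Cluster 1, led by the heat shock genes HSPA1A and HSPA1B, had only COL13A1 higher, at 14.3 CPM against 8.12 CPM in the other stromal-like cells, and 8 of 25 lower (5.79% and 11.3% of all genes). Cluster 2, led by the mitotic genes UBE2C and TOP2A, had 1 of 25 measured members higher and 14 lower (10.3% and 14.2% of all genes). The higher member was COL9A1, at 28.6 CPM against 6.39 CPM (4.47-fold, 2.96 to 6.83). COL3A1 had 612 CPM in cluster 2 against 1390 CPM in the others, and COL1A1 had 157 CPM in cluster 2 against 382 CPM in the others, so the dividing stromal-like cells held less of both. Cluster 3, led by PRPH, NPNT and the epicardial marker UPK3B, had 6 members higher and 10 lower (8.95% and 14.5%), among them COL21A1 at 2.63-fold, COL27A1 at 2.57-fold, COL9A3 at 2.14-fold, COL1A1 at 1.80-fold, COL11A1 at 1.58-fold and COL5A2 at 1.56-fold.

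Cluster 4, led by HTR2C and AREG, had 3 of the 4 type IV members higher. COL4A6 had 78.4 CPM in cluster 4 against 30.8 CPM in the other stromal-like cells (2.54-fold, 1.98 to 3.25), COL4A1 had 152 CPM in cluster 4 against 73.7 CPM in the others and COL4A5 had 121 CPM in cluster 4 against 69.5 CPM in the others. COL22A1 and COL21A1 were the other higher members, and 6 members were lower (18.3% and 12.7% of all genes). Pericyte and smooth muscle markers summed to 2923 CPM in this cluster, against 1248 CPM in the class. Endothelial markers summed to 507 against 243 CPM and cardiomyocyte markers to 4558 against 2895 CPM. Stromal, epicardial and epithelial markers were lower, at 540 against 967 CPM, 19.8 against 101 CPM and 1200 against 2212 CPM. The part of these lists in the type IV levels was not tested. Clusters 5 and 6 had more COL2A1 and less COL1A1 and COL6A3 than the other stromal-like cells. Cluster 5, led by VSTM2A and MYOCD, had COL2A1 at 202 CPM in the cluster against 125 CPM in the others and COL18A1 at 222 CPM in the cluster against 144 CPM in the others. These 2 members were higher and 10 lower (12.5% and 12.3%). COL6A3 had 1.17 CPM in cluster 5 against 52.6 CPM in the others. Cardiomyocyte markers summed to 4691 CPM in cluster 5, against 2895 CPM in the class, and their part in its COL18A1 level was not tested. Cluster 6, led by AKR1C3 and MT1G, had 3 members higher and 13 lower (7.14% and 26.8%). COL9A2 had 68.1 CPM in cluster 6 against 11.4 CPM in the others (5.96-fold, 4.00 to 8.75), COL2A1 had 279 CPM in cluster 6 against 122 CPM in the others, and COL13A1 was 1.95-fold higher. COL1A1 was lower in cluster 6, at 37.4 CPM in cluster 6 against 342 CPM in the others, while COL1A2, with 247 CPM in cluster 6 against 267 CPM in the others, was within 1.5-fold. In cluster 5 COL1A2 was lower, at a ratio of 0.186, and COL3A1 had a ratio of 0.707 and was not counted.

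**Figure D4:**
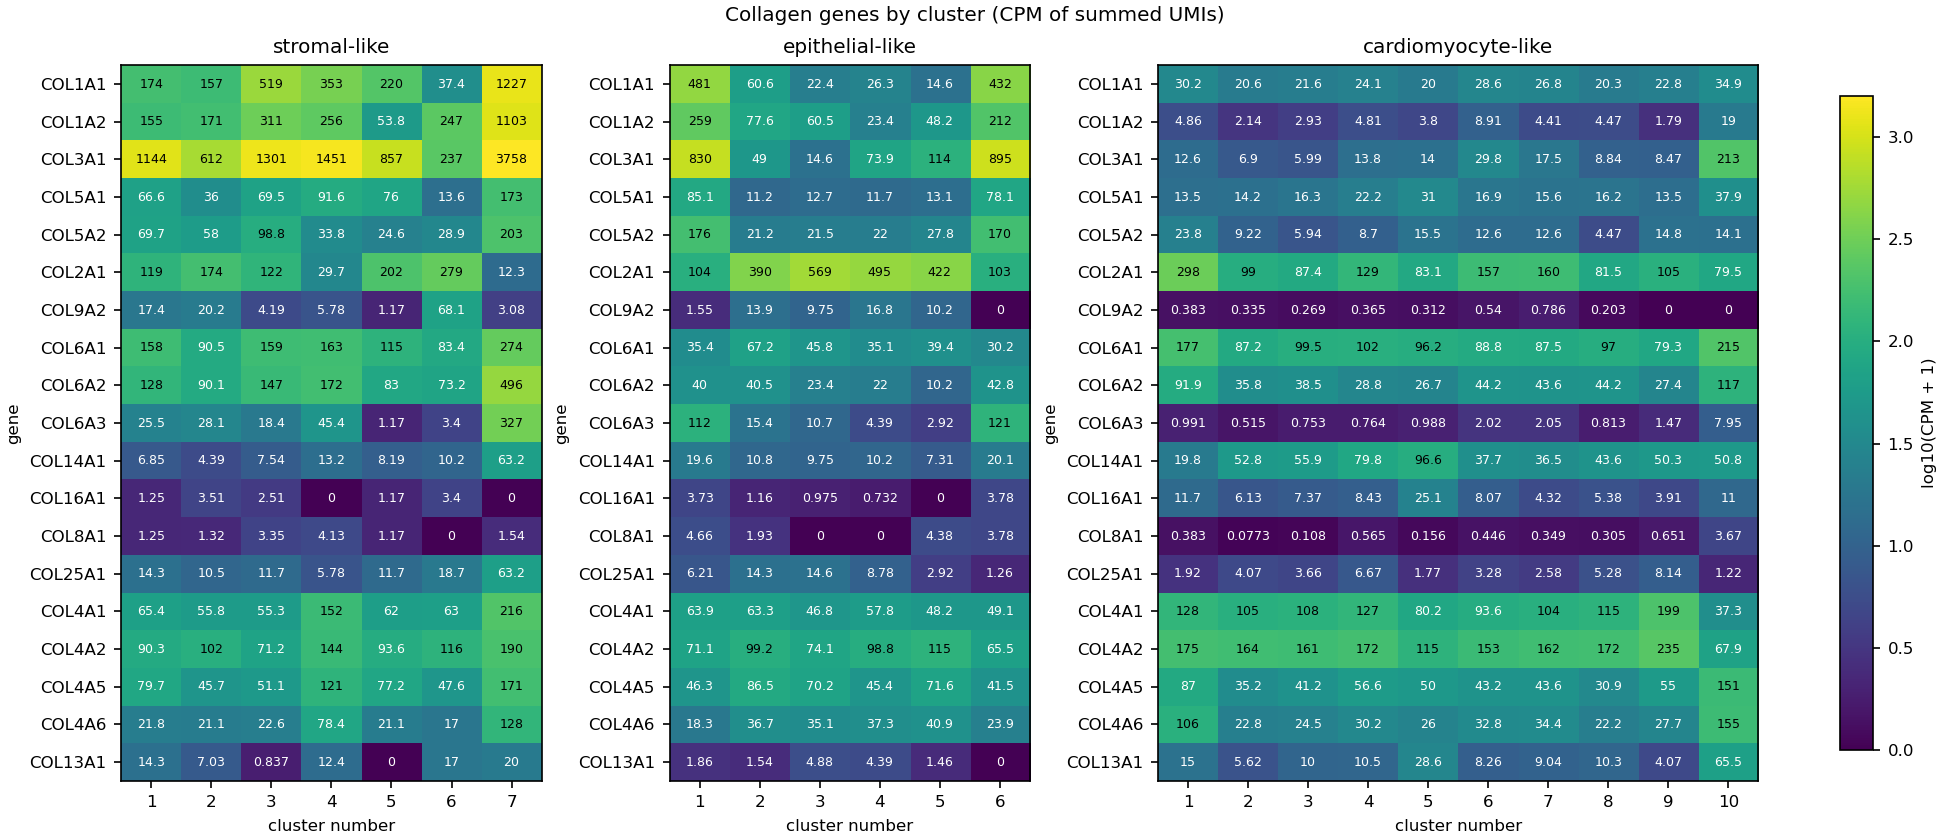
Level of 19 members (rows) in the 7 stromal-like, 6 epithelial-like and 10 cardiomyocyte-like clusters (columns), coloured by log10(CPM + 1). Stromal-like cluster 7 and epithelial-like clusters 1 and 6 carry the highest COL3A1, COL1A1 and COL6A3 levels of their classes, and cardiomyocyte-like clusters 1 and 10 the highest COL4A6.

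Among the cardiomyocyte-like clusters, clusters 1, 5 and 10 had the most members higher. Cluster 1 (3238 cells), led by NPPA and the atrial marker NR2F2, had 8 members higher and 1 lower than the other cardiomyocyte-like cells, where 6.5% and 4.26% of all genes were. COL4A6 had 106 CPM in cluster 1 against 28.9 CPM in the others (3.65-fold, 3.50 to 3.81), COL2A1 had 298 CPM in cluster 1 against 118 CPM in the others (2.53-fold, 2.47 to 2.60) and COL6A2 had 91.9 CPM in cluster 1 against 37.8 CPM in the others (2.43-fold). COL5A2 was 2.34-fold higher, COL4A5 1.95-fold and COL6A1 1.89-fold. COL14A1 was lower, at 19.8 CPM in cluster 1 against 55.9 CPM in the others. Each of COL4A6, COL2A1, COL6A1, COL6A2, COL5A2 and COL4A5 was higher in cluster 1 within 10 of the 10 hashtags with at least 20 cells on both sides. The remaining higher members, COL23A1 and COL9A1, were higher in 9 and 7 of these 10 hashtags. The members were picked as higher from the same cells, so these counts describe the spread and are no separate support. COL4A6 ranged from 66.6 to 150 CPM in cluster 1 over these hashtags, with a median of 94.5 CPM, against 25.6 to 71.9 CPM in the other cells, with a median of 28.3 CPM. Median depth was 8660 UMIs in cluster 1, below the 12926 UMIs of the class.

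Cluster 5 (1739 cells), led by the ventricular marker IRX1 and LMOD2, had another set of members higher. COL16A1 had 25.1 CPM in cluster 5 against 7.58 CPM in the other cardiomyocyte-like cells (3.31-fold, 2.98 to 3.66), COL13A1 had 28.6 CPM in cluster 5 against 9.83 CPM in the others (2.91-fold) and COL14A1 had 96.6 CPM in cluster 5 against 47.2 CPM in the others (2.05-fold). COL5A1 was 1.88-fold and COL22A1 1.63-fold higher. These 5 were higher and 6 members lower, where 6.42% and 4.47% of all genes were. Of 9 hashtags, COL16A1 and COL13A1 were higher in 9, COL14A1 in 8 and COL22A1 and COL5A1 in 7. These members too were picked from the same cells, so the counts only describe the spread. COL14A1, COL16A1 and COL22A1 are fibril-associated collagens. Of the 4 fibril-associated members measured in this comparison, these 3 were higher and 1 was lower.

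Cluster 10 (180 cells), led by CRHBP, HOXB1 and MYH11, had 9 of 20 measured members higher and 4 lower, where 18% and 7.82% of all genes were. Its lower members included COL4A1 and COL4A2, at 0.339 and 0.419. COL3A1 had 213 CPM in cluster 10 against 14.2 CPM in the others (15.0-fold, 13.4 to 16.7), COL13A1 was 5.97-fold higher, COL1A2 4.11-fold, COL4A6 4.06-fold, COL4A5 3.06-fold and COL6A2 2.63-fold. Thus 1 pair of type IV chains was higher and the other lower in the same cells. Stromal markers summed to 286 CPM in cluster 10, against 80.8 CPM in the class. PDGFRA made up 195 CPM and FBLN1 69.1 CPM of the sum in cluster 10, where DCN and LUM had 0 UMIs. Pericyte and smooth muscle markers summed to 2845 CPM in cluster 10, against 1375 CPM in the class, and their part in the result was not tested. Clusters 6 and 7, led by genes of dividing cells, had more COL9A1 than the other cardiomyocyte-like cells, with 20.6 CPM in cluster 6 against 7.43 CPM in the others and 17.4 CPM in cluster 7 against 8.96 CPM in the others. COL3A1 was also 2.39-fold higher in cluster 6. The stromal markers summed to 100.2 CPM in cluster 6, against 80.8 CPM in the class. Of the sum in cluster 6, FBLN1 made up 42.9 CPM, PDGFRA 20.9 CPM, TWIST1 15.5 CPM, LUM 5.79 CPM and DCN 2.23 CPM. The median doublet score of 0.288 was the highest of the 10 clusters. The part of these in the COL3A1 level was not tested. Cluster 6 thus had 2 of 18 measured members higher and 0 lower (4.2% and 1.49% of all genes), and cluster 7 had 1 of 18 higher and 0 lower (5.36% and 1.92%). COL9A1, a chain of type IX collagen, was higher in the dividing clusters of both the stromal-like and the cardiomyocyte-like class. Higher members in stromal-like cluster 2 and cardiomyocyte-like cluster 7 were below or near the share of all genes. No result about collagens is therefore read from this recurrence. COL9A1 was also higher in cardiomyocyte-like cluster 1, which was not led by genes of dividing cells. In epithelial-like clusters 4, 5 and 6, with genes of dividing cells among their 10 leading genes, it had 17.6, 5.84 and 1.26 CPM. A link to division was not tested. Cluster 4 had COL14A1 at 1.70-fold and COL11A2 at 1.51-fold as its 2 higher members and 2 lower (3.84% and 4.01%). Cluster 9, led by the stress gene ATF3 and CCN2, had COL21A1 at 4.06-fold and COL4A1 at 1.86-fold as its 2 higher members and 3 lower (4.67% and 6.34%). Cluster 2 had 0 members higher and 6 lower (0.312% and 7.31%), cluster 3 had 0 and 5 (1.42% and 3.73%), and cluster 8 had 0 and 5 (5.26% and 14.2%). Over the 10 clusters, 18 members were higher in at least 1. The share of all genes higher in at least 1 cluster was not counted, so this count is not read as a result about collagens.

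The hashtags are unassigned samples, so their values are described and not compared as groups. A hashtag was given to 10001 cells (48.5%), 396 to 1327 per hashtag, and the stromal-like share of these cells ran from 0.753% to 30.1% with a median of 1.52%. Only 5 hashtags held at least 20 stromal-like cells. In these cells COL3A1 had 715 CPM in Hashtag1, 809 CPM in Hashtag2, 1422 CPM in Hashtag7, 1115 CPM in Hashtag8 and 2711 CPM in Hashtag12. COL1A1 had 183, 148, 288, 299 and 831 CPM in these 5 hashtags in that order, and COL6A3 had 11.8, 8.88, 130, 3.69 and 144 CPM. Hashtag12, of whose stromal-like cells 15 of 30 were of cluster 7, was highest for all 3. COL2A1 ran the other way, with 217 CPM in Hashtag1, 137 CPM in Hashtag2, 45.9 CPM in Hashtag7, 51.7 CPM in Hashtag8 and 25.9 CPM in Hashtag12, while COL18A1 stayed between 135 and 211 CPM. Of the 16 members higher in stromal-like than in cardiomyocyte-like cells, 13 were higher in all 5 hashtags, and COL25A1, COL4A5 and COL9A2 in 4 of 5. The 16 were picked from pooled cells that include these hashtags, so the counts were partly set by that choice and are no separate support. The share of all genes was not counted.

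In cardiomyocyte-like cells all 13 hashtags gave a value, and 2 of them stood apart from the rest. COL4A6 had 93.8 CPM in Hashtag14 and 123 CPM in Hashtag15, against 25.5 to 40.6 CPM in the other 11 hashtags, with a median of 33.6 CPM. COL2A1 had 284 CPM in Hashtag14 and 281 CPM in Hashtag15, against 94.3 to 201 CPM in the other 11. COL6A1 had 174 and 190 CPM in Hashtag14 and Hashtag15, against 77.3 to 127 CPM, and COL18A1 had 404 CPM in each, against 252 to 356 CPM. The ranges did not overlap for these members, nor for COL6A2, COL4A5, COL1A1, COL23A1 and COL27A1, all higher in Hashtag14 and Hashtag15. COL14A1 was lower there without overlap, with 25.6 and 25.9 CPM against 31.0 to 82.9 CPM in the other 11. These 2 hashtags were picked after their values were seen. The share of all genes without overlap was not counted, so no result about collagens is read from this. Cluster 1 took 72.3% of the cardiomyocyte-like cells of Hashtag14 and 76.0% of those of Hashtag15, against 0.688% to 31.9% in the other hashtags. COL3A1 ran from 7.0 CPM to 51.8 CPM with a median of 12.2 CPM, the highest being Hashtag1, which also had the largest stromal-like share.

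**Figure D5:**
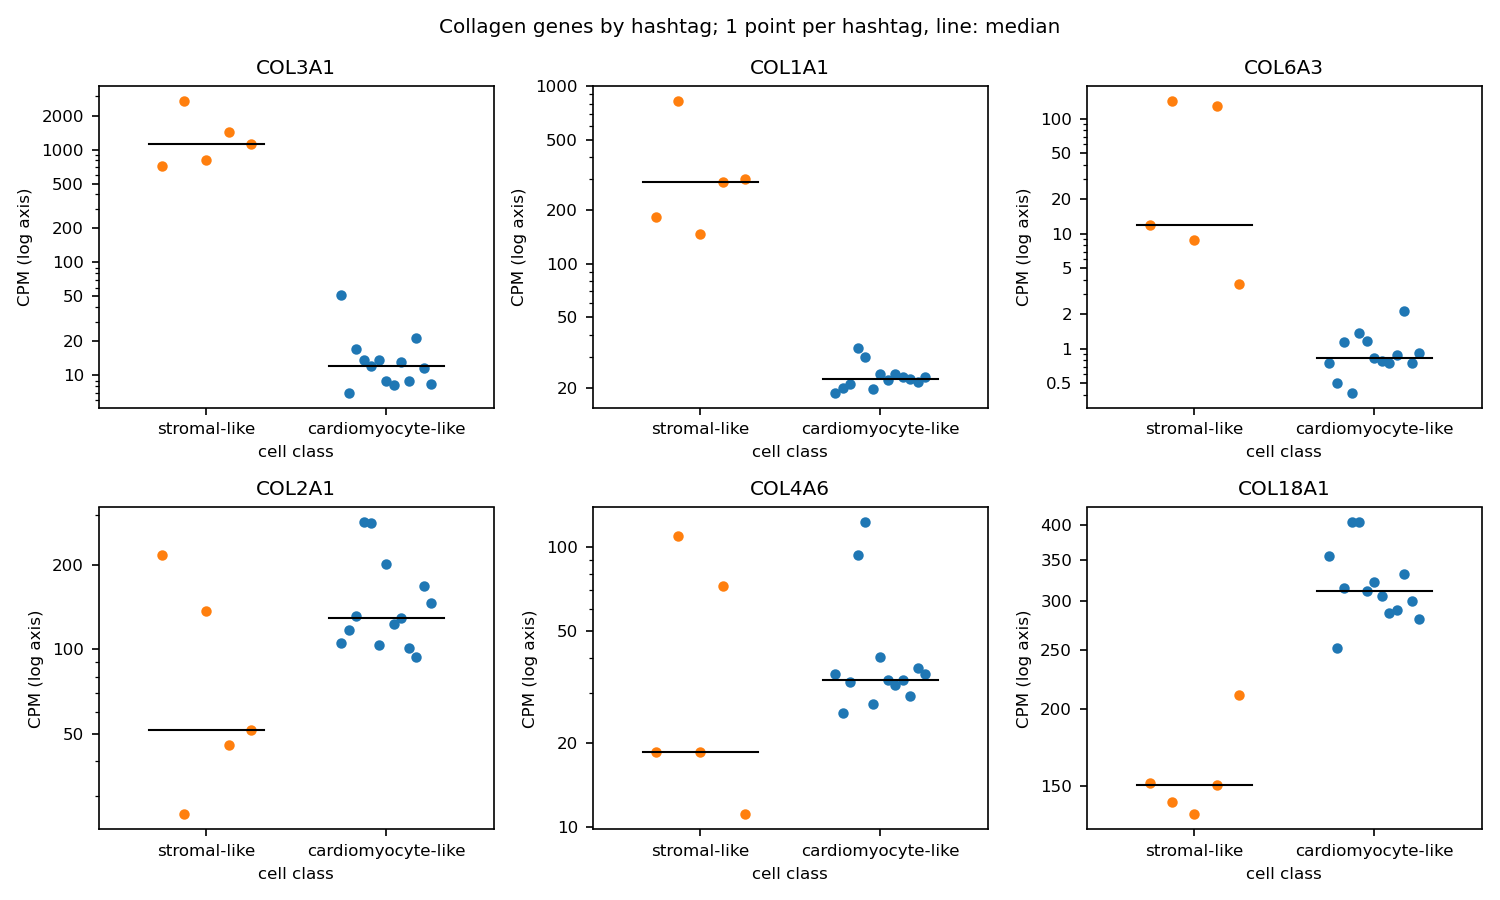
Level of COL3A1, COL1A1, COL6A3, COL2A1, COL4A6 and COL18A1 (CPM, log axis) in stromal-like cells of 5 hashtags and, to the right, cardiomyocyte-like cells of 13 hashtags, 1 point per hashtag with a line at the median. COL3A1, COL1A1 and COL6A3 points of stromal-like cells lie above the cardiomyocyte-like ones, and the 2 highest COL4A6 points of cardiomyocyte-like cells, 93.8 and 123 CPM, are Hashtag14 and Hashtag15.

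The genes that make, assemble, bind and degrade collagen were counted in 6 lists. Of the chaperones and hydroxylating enzymes, 11 of 19 measured genes were higher and 0 lower in stromal-like than in cardiomyocyte-like cells, where 27.7% of all genes were higher and 14.8% lower. SERPINH1, the collagen chaperone HSP47, had 203 CPM in stromal-like cells, compared with 84.7 CPM in cardiomyocyte-like cells (2.39-fold, 2.28 to 2.51). P4HA1, a prolyl 4-hydroxylase subunit, had 155 CPM in stromal-like cells and 86.5 CPM in cardiomyocyte-like cells, and the prolyl 3-hydroxylases P3H3, P3H1 and P3H2 were 6.98-fold, 3.95-fold and 2.98-fold higher. PLOD2, a lysyl hydroxylase, had 124 CPM in stromal-like cells and 116 CPM in cardiomyocyte-like cells and was not counted. Across the other groups SERPINH1 was 3.45-fold higher in the STMN2/DKK1 cluster, 4.91-fold (4.32 to 5.57) in endothelial-like cells and 1.57-fold in epicardial-like cells, and its ratios of 1.45 in epithelial-like and 1.14 in endoderm-like cells were not counted. The endothelial-like cells, whose fibrillar level was among the lower ones, thus had the highest SERPINH1 ratio.

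Of the enzymes that trim and cross-link collagen, 5 of 6 measured genes were higher in stromal-like cells and 8 of 8 in the STMN2/DKK1 cluster, where 29.4% of all genes were higher. PCOLCE, which enhances the removal of the C-terminal propeptide, had 98.2 CPM in stromal-like cells, compared with 10.0 CPM in cardiomyocyte-like cells, and PXDN, the peroxidasin that cross-links type IV collagen, was 2.25-fold higher. LOX, which cross-links fibrillar collagen, was 10.1-fold higher in the STMN2/DKK1 cluster (21.6 CPM there and 2.14 CPM in cardiomyocyte-like cells) and was below the 10 CPM minimum in stromal-like cells, at 7.40 CPM. Of the proteoglycans and fibril regulators, 4 of 5 were higher in stromal-like cells, among them BGN at 57.2-fold, FN1 at 16.7-fold and SPARC at 6.09-fold.

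Of the basement membrane partners, 2 of 11 measured genes were higher and 5 lower in stromal-like cells. The shares of all genes for this and the other stromal-like lists are those given with the chaperones above. The share of these partners that were higher was below that of all genes, and the share that were lower was above it. LAMA2, the laminin chain of muscle, had 5.01 CPM in stromal-like cells, compared with 60.4 CPM in cardiomyocyte-like cells, and LAMA4, a laminin chain of vessels and muscle, had a ratio of 0.0959. In endothelial-like cells, where COL4A1 and COL4A2 were highest, 5 of 10 measured partners were higher and 2 lower than in cardiomyocyte-like cells. The shares of all genes for that comparison are given with the endothelial-like members above. Among the higher partners, HSPG2 (perlecan) was 8.73-fold and NID1 (nidogen) 6.22-fold higher. Of the receptors, 3 of 5 were higher in stromal-like cells. ITGA1, an integrin chain that binds collagen, had 32.7 CPM in stromal-like cells, compared with 0.955 CPM in cardiomyocyte-like cells, and DDR2, a receptor kinase activated by fibrillar collagen, had a ratio of 29.2. DDR1, its relative, was lower at a ratio of 0.665. Of the degradation genes, 7 of 9 were higher and 2 lower, with MMP14 at 7.42-fold, MMP2 at 7.41-fold and TIMP1 at 3.96-fold. The median log2 ratio in stromal-like cells was 0.84 for chaperones and hydroxylation, 1.09 for trimming and cross-linking, 2.61 for proteoglycans, 0.27 for basement membrane partners, 1.03 for receptors and 0.91 for degradation, against 0.21 for all genes.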

How the data were processed

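The deposited matrix holds raw counts (UMIs) of 36601 genes and 13 hashtags. Its file headers name Cell Ranger 4.0.0 and the submitters' processing notes name hg38. How strand was used and cells were called is not given in the sources used here. Barcodes with fewer than 500 genes or 1000 UMIs or over 25% mitochondrial UMIs were dropped, which left 21623, and 989 doublets called by Scrublet (4.57%, 19.2% expected) were removed, so doublets remain. The 2000 most variable genes without collagens and matrix lists gave 30 principal components and a graph of 15 neighbours (scanpy 1.11.5, umap-learn 0.5.12), clustered with leidenalg 0.10.2 (resolution 0.6, seed 0) and named from 15 marker lists. The cut of 10000 CPM for setting cells aside was chosen after seeing the data. UMIs were summed per group and scaled to CPM, and ratios and intervals computed with scipy 1.17.1. Depth was 311110726 gene UMIs. A hashtag was given at 70% of at least 20 hashtag UMIs. Members and lists were chosen with earlier results of these data known. Members reaching 20 CPM in a named class, at most 6 per cluster by ratio, and up to 4 listed genes per comparison were named. Scripts were tested on simulated data, and alternatives included TMM (edgeR 4.0.16), other filters, clusterings and hashtags. Gene positions come from GENCODE 29 and sequences from RefSeq on GRCh38.p14. LEPREL1 has no row.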

Additional observations from a re-analysis of the deposited data

How the results depend on the processing

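No test was made, so depth and the choice of cells set the limits. Members were compared within hashtags, but no paired test was made. The labels give no replicate numbers and the hashtags are unassigned samples, whose values are given without a test. Of 2719 values of 120 member calls under the alternatives, 2677 kept the call and 2 reversed: COL1A1 in endothelial-like cells, at 0.371 among cells given to 1 hashtag, and COL1A2 in endoderm-like cells, at 0.565 as the median over hashtags. TMM scaling raised the lower members to 9 in stromal-like, 9 in epicardial-like and 14 in epithelial-like cells. Without a minimum level, 28 members were higher in stromal-like cells, 33 in the STMN2/DKK1 cluster, 29 in epicardial-like, 27 in endothelial-like, 27 in epithelial-like and 16 in endoderm-like cells, and 36 in at least 1 cardiomyocyte-like cluster, since members with few UMIs enter. Among cells given to 1 hashtag, 5 were higher in endothelial-like cells. The median share of cells with a UMI was 9.20% thinned and 24.1% unthinned. Leaving out each hashtag in turn gave 15 to 16 higher and 4 to 5 lower members in stromal-like cells, 20 to 21 and 3 to 4 in the STMN2/DKK1 cluster, 15 and 5 to 6 in epicardial-like cells, 8 to 9 and 7 to 8 in endothelial-like cells, 13 and 9 in epithelial-like cells, and 5 to 7 and 11 in endoderm-like cells. The share of all genes was not counted under any of these alternatives. Their counts of members are therefore not read as results about collagens. COL4A5 lost its call in stromal-like cells without Hashtag12 (1.46) and without Hashtag7 (1.48), under TMM (1.18) and at resolution 1.0 (1.39). COL4A1 in the STMN2/DKK1 cluster lost its call without Hashtag5 (1.46) and under TMM (1.24), and COL23A1 in stromal-like cells lost its call under TMM (1.33). The COL23A1 ratio of 0.0935 in endothelial-like cells rested on 1 UMI. Without Hashtag2 no UMI was left, and the floor of 3 counts limits the ratio to at most 0.298, which is no measured rise. Clustering with the collagens and matrix genes gave 76.2 for COL6A3 in stromal-like cells and 0.934 for COL14A1, and resolution 1.0 gave 23.7 for COL6A3. Apart from that floor, the cause of these moves was not tested.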

Other observations

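Low-depth cells had a summed collagen level of 2476 CPM at a median of 1855 UMIs per cell, and the cells set aside for cardiomyocyte markers had 2162 CPM. Both levels were above the 1213 CPM of cardiomyocyte-like cells, and neither entered a comparison.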
